A study of Mus musculus with 16 samples.

Results

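The B1 cells of the mouse peritoneal cavity were compared with the B2 cells of the spleen across all genes of an Affymetrix array. The arrays titled B1 replicate 1 and 2 and B2 replicate 1 and 2 were chosen by their titles, which gives 4 of the 16 arrays of the series. All 4 came from wild-type C57BL/6 mice, whose age and sex the labels do not give. B1 cells were sorted from the peritoneum as IgM(hi)IgD(int)CD11b+ (n = 2) and B2 cells from the spleen as IgM(int)IgD(hi)CD11b- (n = 2), with about 100000 cells per sample. The other 12 arrays hold NKT, CD4T, CD8abT and CD8aaT cells (n = 3 each) and served to estimate the spread per probe set and for 1 comparison of differences. The NKT and CD4T cells came from the spleen and the CD8abT and CD8aaT cells from thymic organ culture (RTOC). For the CD8 groups fewer cells were sorted per sample than for the others. Tissue of origin and B cell lineage changed together between the groups, so they cannot be told apart, and B1a and B1b cells were not separated by the gate. Replicates are called biological in the series, but separate mice or sorts are not mentioned, so the p-values cover the spread among these samples, which may be technical. With 2 arrays per group, an exact permutation test of a single gene cannot go below a two-sided p = 0.333, and all adjusted p-values here come from limma fitted across 12422 probe sets.

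B1 cells are B lymphocytes that settle in the body cavities, renew themselves there, and are known for secreting natural IgM without prior immunisation. B2 cells are the conventional B cells of spleen and lymph node, most of them follicular, which recirculate, present antigen to T cells and enter germinal centres. Known marks of the mouse follicular cell are CD23, encoded by Fcer2a, and CD21, encoded by Cr2, while peritoneal B1 cells carry CD11b, CD43 and, in the B1a subset, CD5.

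The values were deposited as linear intensities made with RMA, which subtracts background, normalizes across arrays and reduces each probe set to 1 value. Differences are B1 minus B2 on the log2 scale with their standard error (SE) from the fit, and a probe set was called when its adjusted p was under 0.05. The array medians of the 4 B cell arrays lay between 69.2 and 76.1. Replicate 1 of B1 resembled replicate 1 of B2 (Pearson r across probe sets 0.983, SD of the log2 difference 0.309) more than its own replicate (0.9756 and 0.387), and the replicates of B2 correlated at r = 0.9826. The actin control of RNA quality, a ratio of its 3′ to its 5′ signal, was 4.86 and 5.04 in B1 and 5.31 and 4.19 in B2, so the groups overlapped. The same ratio for Gapdh was 5.36 and 8.48 in B1 and 5.77 and 6.84 in B2. The actin 3′ signal was 8377 and 1629.5 in B1 and 9285 and 6128 in B2. B1 replicate 2 thus had the highest Gapdh ratio and the lowest actin 3′ signal. A ribosomal RNA control read 776 and 877 on the replicate 1 arrays of B1 and B2 and 33.4 and 62.6 on the replicate 2 arrays, and its part in the results was not tested. RMA compresses the differences of dim probe sets, and the number of arrays limits the precision. In bulk samples, fewer cells of a type and less RNA per cell cannot be told apart.

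The genes of the sort gate were read first. Ighd, the IgD heavy chain gene, had intensities of 225 and 192 in B1 and 558 and 437 in B2. It was lower in B1 by the fit (-1.25 ± 0.18, SE, adjusted p = 0.0017), in the direction of the gate. The brightest Ighm probe sets read 5484 and 8263 in B1 against 3946 and 5398 in B2, and 6345 and 8229 against 4802 and 5157. Each was 0.54 above B2, and none of the 16 Ighm probe sets was called. Itgam, which encodes CD11b, lay below the array medians in both groups (42.3 and 40.3 in B1, 41.6 and 40.5 in B2), so its mRNA did not separate cells that the sort separated by protein.

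Of the 12422 probe sets, 142 were called (1.14%), 98 of them higher in B1 (0.789%) and 44 lower (0.354%). At an unadjusted p under 0.05 there were 594. A single symbol was listed for 126 of the 142, which name 119 genes. The groups did not overlap on any of the 142, while 32.3% of all probe sets had no overlap either (12.2% with B1 above, 20.1% with B1 below). Large differences leaned to B1 much as all calls did, of which 69% were higher. There were 48 called probe sets that differed by at least 2 on the log2 scale, 35 of them upward. The median over all probe sets was -0.05. Leaving out B1 replicate 1 gave 131 calls, B1 replicate 2 gave 77, B2 replicate 1 gave 82 and B2 replicate 2 gave 64, and a fit on the 4 B cell arrays alone gave 50.

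**Figure D1:**
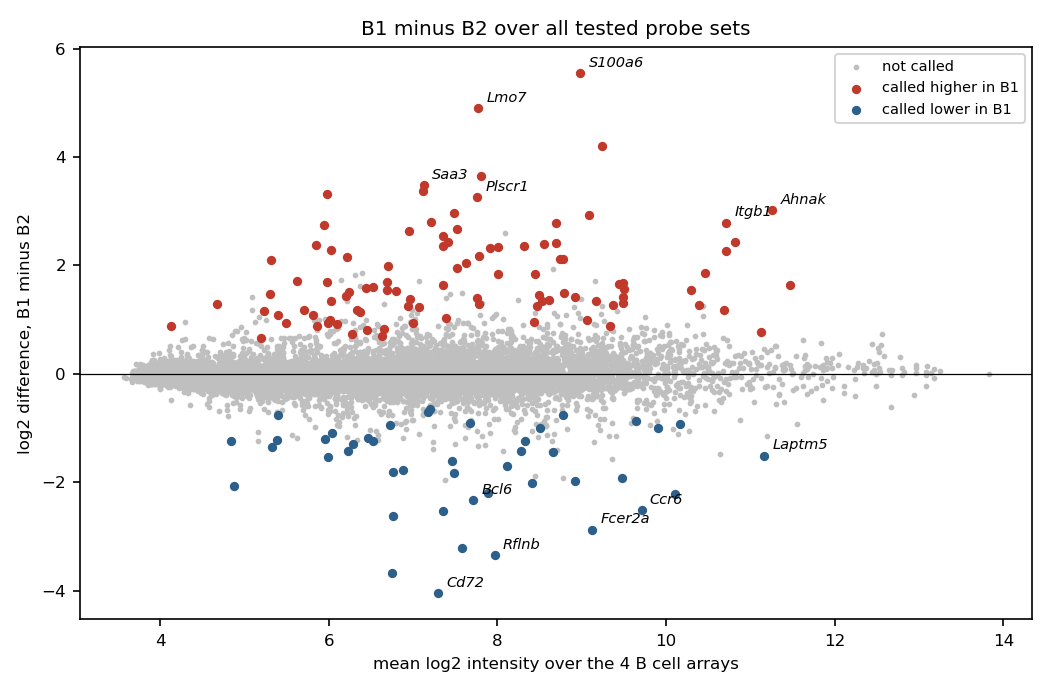
Each point is 1 of the 12422 probe sets, with the mean log2 intensity over the 4 B cell arrays on the horizontal axis and the log2 difference B1 minus B2 on the vertical axis. Red points were called higher in B1 (98) and blue points lower (44); S100a6 at 5.55 and Cd72 at -4.05 are the extremes.

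The named genes were the 15 largest increases and the 15 largest decreases among called probe sets with 1 gene symbol, no overlap and no gate gene. All 30 had the same sign in each of 14 alternative analyses that tested them, and 21 kept their call whichever of the 4 B cell arrays was left out. Naming required no overlap, so leaving out arrays could not turn a sign, and the shared sign is not separate support. A limma fit on the 4 B cell arrays alone called 20 of the 30. The main fit, also with 1 array left out, takes its spread largely from the T cell arrays. On the B cell arrays alone the adjusted p was 0.016 for Satb1, 0.025 for Dusp2 and 0.0095 for Ptpn22. In that fit it was 0.086 for Lifr, 0.059 for Plscr1 and 0.16 for Mef2c. A called probe set that the annotation used here does not list had the third largest increase (4.21 ± 0.34, from 136 and 146 in B2 to 2334 and 2902 in B1). The next largest was also of an unlisted probe set (3.65 ± 0.27, from 57.1 and 70.1 in B2 to 575 and 1095 in B1). Of the 142 called probe sets, 12 were unlisted.

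**Figure D2:**
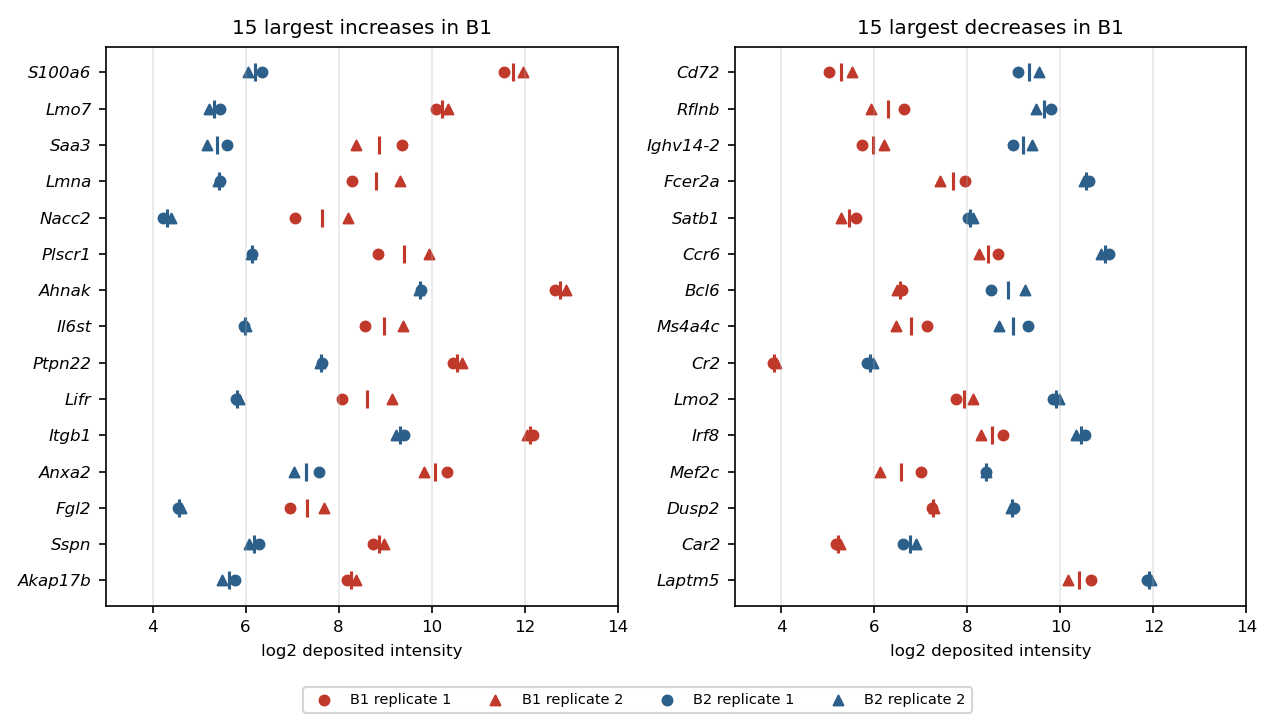
Log2 deposited intensity of the 30 named genes on each of the 4 B cell arrays, with circles for replicate 1, triangles for replicate 2 and vertical bars for the group means. Red marks are B1 and blue marks B2. The groups are apart on every gene, as the choice of the genes required. Lmna, Nacc2, Plscr1, Il6st and Lifr spread more between the B1 arrays than between the B2 arrays.

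The largest increase belonged to S100a6, an EF-hand calcium-binding protein of the S100 family that binds annexins. It read 2994 and 4008 in B1 against 82.3 and 66.2 in B2, a difference of 5.55 ± 0.51 (adjusted p = 2.9e-05). The B2 arrays were close to the array median and the B1 arrays far above it. Genes of S100 binding partners were also called higher. Anxa2, a membrane-binding annexin, read 1279 and 916 against 190 and 131 (2.78 ± 0.26, adjusted p = 3e-05). Ahnak, the giant scaffold protein that binds the annexin A2 and S100A10 complex, read 6437 and 7573 against 879 and 845 (3.02 ± 0.37). The groups did not overlap on either gene, which was a condition for naming it.

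The list of S100, annexin and membrane scaffold genes holds the named increases S100a6, Anxa2, Ahnak and Lmna. It was chosen with earlier results of these data known, so its counts are not a separate test. Of its 19 measured members 8 were called higher and 0 lower. Over all genes by their brightest probe set 1.36% were called, 0.982% higher and 0.376% lower. These shares also stand beside the counts of the lists below. In this list 18 of 19 lay above 0, where 3153 of 8251 genes did. Its median was 1.13, against -0.05 over all genes, and lay between 1.05 and 1.31 in the alternatives, which called 6 to 11 members higher. S100a10, the annexin A2 partner, read 2097 and 2066 in B1 and 839 and 882 in B2 (1.28 ± 0.18, adjusted p = 0.0014). Crip1, a small LIM-domain protein, read 3864 and 4550 against 966 and 628 (2.43 ± 0.33). These were high in both groups and higher on each B1 array. S100a4, an S100 protein tied to cell motility, read 176 and 246 against 53.7 and 50.8 (1.99 ± 0.36), and Tagln2, an actin-binding transgelin, 1044 and 1584 against 339 and 474 (1.68 ± 0.33). These calls were less firm: without B1 replicate 2, B2 replicate 1 or B2 replicate 2 the adjusted p was 0.2, 0.088 and 0.12 for S100a4 and 0.36, 0.28 and 0.064 for Tagln2.

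The S100a6 start lies on chromosome 3. Its 250 bases upstream, chr3:90612644-90612893 on the plus strand of GRCm38.p6 from RefSeq, are shown as the sequence before the gene with the largest increase, and they do not hold the motif searched below, so no base is in capitals.
S100a6: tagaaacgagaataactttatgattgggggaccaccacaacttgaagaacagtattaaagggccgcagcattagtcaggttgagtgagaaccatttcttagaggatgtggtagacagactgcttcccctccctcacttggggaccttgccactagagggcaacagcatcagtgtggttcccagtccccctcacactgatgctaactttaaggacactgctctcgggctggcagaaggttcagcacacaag

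Genes of the nuclear envelope, adhesion and cytoskeletal linkage were also among the largest increases. Lmo7, an actin-associated protein with PDZ and LIM domains that also binds emerin, read 1101 and 1300 in B1 against 43.5 and 37.0 in B2 (4.90 ± 0.30, adjusted p = 7.3e-07). Lmna, which encodes lamins A and C, read 310 and 641 against 43.8 and 42.2 (3.38 ± 0.29), while its other probe set differed by 0.13 and was not called. Itgb1, the integrin β1 chain, read 4621 and 4227 against 675 and 603 (2.79 ± 0.26), and its other probe set was called as well (1.85). In the list of integrins and adhesion genes, 2 of 18 members were called higher, Itgb1 and the tetraspanin Cd9, and 0 lower (median 0.20). Of all genes 0.982% were called higher. The α chains were not called: Itga6 differed by 0.66 ± 0.22. Sspn, a tetraspanin-like member of the dystrophin complex, read 429 and 503 against 78.1 and 67.3 (2.68 ± 0.25).

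Both signalling chains of the LIF receptor, of the IL-6 cytokine family, were called higher in B1. Il6st encodes gp130, the shared signalling chain of IL-6 and related cytokines, and read 377 and 666 in B1 against 62.9 and 64.6 in B2 (2.97 ± 0.46, adjusted p = 0.0034, and 0.074 without B1 replicate 2), while a second, dim probe set differed by 0.03 and was not called. Lifr, the LIF receptor chain that pairs with gp130, read 271 and 565 against 55.1 and 57.6 (2.80 ± 0.25), on 1 of 5 probe sets, while the others ranged from -0.01 to 0.80 and were not called. B1 replicate 2 was the higher B1 array on both. Of 17 interleukin and interferon receptor genes, 2 were called higher and 0 lower, beside 0.982% and 0.376% of all genes, with a median of -0.12. The second was Csf2rb2, the IL-3-specific β chain, at 130 and 199 against 59.6 and 47.1 (1.60 ± 0.26). Its adjusted p of 0.0052 became 0.11 without B1 replicate 2 and 0.1 without B2 replicate 2. Il5ra, the IL-5 receptor chain known from B1 cell growth, was dim at 22.2 and 21.8 against 15.4 and 15.8 (0.50 ± 0.29, not called).

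Genes known from B1 cells stood above B2 on 7 of 8 measured members, where 3153 of 8251 genes did. Of the 8, 3 were called higher and 0 lower, beside 0.982% and 0.376% of all genes. This list, like the others, was chosen with earlier results of these data known, so its counts are not a separate test. The list's median of 1.24 rested on few genes and ranged from 0.83 to 2.52 among the alternatives. Cd9 read 364 and 432 in B1 against 79.0 and 68.2 in B2 (2.43 ± 0.26, adjusted p = 9.5e-05). Ptpn22, a tyrosine phosphatase that restrains antigen receptor signalling, read 1411 and 1605 against 200.045 and 194 (2.93 ± 0.50). A second, dim probe set differed by 0.05 and was not called. The adjusted p of 0.0073 for Ptpn22 rose to 0.092, 0.066 and 0.083 without B1 replicate 2, B2 replicate 1 and B2 replicate 2. Ctla4, an inhibitory receptor reported on B1a cells, read 60.7 and 132 against 24.8 and 30.03 (1.71 ± 0.37, adjusted p = 0.035), and 0.63, 0.34 and 0.16 without those same arrays.

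The classical surface marks of B1 cells were not called. Cd5 read 87.5 and 71.9 in B1 and 64.3 and 59.7 in B2 (0.36 ± 0.45, adjusted p = 1), and Spn, which encodes CD43, 68.1 and 65.8 against 78.3 and 71.5 (-0.16 ± 0.21, adjusted p = 1). Lgals1, the galectin 1 gene, differed more but with a wide error: 991 and 456 against 152 and 80.3 (2.60 ± 0.85, adjusted p = 0.37). S100a6, Lmo7 and Plscr1 read far above B2 on both B1 arrays and Fcer2a far below, in the direction of the labels, but these 4 were picked as markers with results of these data known.

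Of 8 follicular genes, 3 were called lower in B1, Fcer2a, Cr2 and Cd22, and 0 higher, with a median of -0.67. Of all genes 0.376% were called lower and 0.982% higher. Fcer2a, the low-affinity IgE receptor CD23, read 1567 and 1453 in B2 against 247 and 171 in B1 (-2.88 ± 0.18, adjusted p = 7.3e-07). Cr2, the complement receptor CD21/CD35, read 57.7 and 62.6 against 14.1 and 14.7 (-2.06 ± 0.19), on a probe set that was dim in both groups. The homing receptors of the list were not called: Cxcr5, the CXCL13 receptor, differed by 0.34 ± 0.24, S1pr1 by 0.10 ± 0.16 and Ccr7 by -0.77 ± 0.29. Klf2, a transcription factor of lymphocyte trafficking, differed by 0.25 ± 0.30 and was not called either. Ccr6, the CCL20 receptor, was the 1 called lower among 11 chemokine receptor and egress genes, at 2116 and 1890 in B2 and 405 and 304 in B1 (-2.51 ± 0.18, adjusted p = 3.1e-06). Ccr1 was called in the other direction at 56.5 and 69.0 in B1 against 34.0 and 31.1 in B2 (0.94 ± 0.17, adjusted p = 0.011), and 0.21, 0.067 and 0.16 without B1 replicate 2, B2 replicate 1 and B2 replicate 2.

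The largest decrease was in Cd72, an ITIM-bearing co-receptor that dampens B cell receptor signals. It read 548 and 748 in B2 and 32.5 and 46.2 in B1 (-4.05 ± 0.46, adjusted p = 0.00024), so the B1 arrays lay below the array median. Cd22, a Siglec co-receptor of the same kind, fell from 940 and 1253 to 546 and 643 (-0.87 ± 0.17, adjusted p = 0.016). The adjusted p for Cd22 was 0.17, 0.053 and 0.31 without B1 replicate 1, B1 replicate 2 and B2 replicate 2. Ptpn6, the phosphatase SHP-1 that such co-receptors recruit, read 244 and 281 in B1 and 545 and 596 in B2 (-1.12 ± 0.30, adjusted p = 0.13). Among 13 brakes on receptor signalling, 1 was called higher (Ptpn22) and 2 lower (Cd72 and Cd22), and the median was -0.04. Of all genes 0.982% were called higher and 0.376% lower. Of the 16 components that carry the signal forward, 0 were called, with a median of -0.10 and a range from -0.93 for Fyn to 0.55 for Syk. Cd79b, the Ig-β chain, was bright everywhere at 4694 and 2857 in B1 and 5202 and 3734 in B2 (-0.27 ± 0.53).

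The window before the Cd72 start, chr4:43454627-43454876 on the minus strand of GRCm38.p6 from RefSeq, is shown because this gene fell most. It does not hold the motif searched below.
Cd72: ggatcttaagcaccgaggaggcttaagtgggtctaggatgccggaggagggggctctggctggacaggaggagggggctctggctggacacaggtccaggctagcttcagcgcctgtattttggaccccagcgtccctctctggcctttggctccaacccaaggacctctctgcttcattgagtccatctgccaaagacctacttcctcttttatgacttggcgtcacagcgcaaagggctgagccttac

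Transcription factors of the B lineage fell or did not pass the test. Bcl6, the repressor required for germinal centre B cells, read 365 and 607 in B2 against 97.0 and 90.0 in B1 (-2.33 ± 0.35, adjusted p = 0.0028, and 0.064 without B2 replicate 2). Irf8, an interferon regulatory factor of B and myeloid cells, read 1476 and 1303 against 433 and 313 (-1.91 ± 0.42, adjusted p = 0.04), and its call was lost without any 1 of the 4 arrays (adjusted p from 0.096 to 0.49). These are the 2 of 21 listed factors that were called lower, beside 0.376% of all genes, with 0 higher and a list median of -0.12. Pax5, the B cell identity factor, read 863 and 603 in B1 against 1277 and 1099 in B2 (-0.72 ± 0.29, adjusted p = 0.77). Irf4, an interferon regulatory factor known from plasma cell formation, differed by 0.49 ± 0.50 and its groups overlapped.

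Satb1, Lmo2 and Mef2c were further nuclear regulators among the named decreases, of which Mef2c is on the list but is counted there by its brightest probe set, which was not called. Satb1, a chromatin organiser known from T cells, read 259 and 278 in B2 and 48.8 and 38.9 in B1 (-2.62 ± 0.55, adjusted p = 0.032, from 0.11 to 0.34 with 1 array left out). Lmo2, a LIM-domain cofactor of germinal centre and progenitor cells, fell by 1.97 on the log2 scale (SE 0.14, adjusted p = 3e-06) with no array deciding the call, while its dimmer probe set differed by -0.60 and was not called. Mef2c, which acts downstream of the B cell receptor, read 338 and 339 against 129 and 69.6 (-1.84 ± 0.26). Its 4 probe sets were all lower in B1, 3 were called, and the brightest was not (-1.18, adjusted p = 0.08).

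Of the Bcl6 windows in the RefSeq table, chr16:23981284-23981533 on the minus strand of GRCm38.p6 holds several matches to TTCNNNGAA, in capitals. This is the core of the interferon-gamma activated site that STAT proteins bind, and the matches begin at -168, -122 and -88 from the start.
Bcl6: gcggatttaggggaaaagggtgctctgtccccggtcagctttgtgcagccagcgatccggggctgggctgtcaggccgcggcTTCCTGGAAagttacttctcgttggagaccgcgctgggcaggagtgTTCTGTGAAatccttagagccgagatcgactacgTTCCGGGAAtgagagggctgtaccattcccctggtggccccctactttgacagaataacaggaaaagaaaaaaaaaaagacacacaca

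Both strands were searched for TTCNNNGAA in RefSeq windows of 300 bases, from 250 before to 50 after each start, which 27 of the 30 named genes have (44 windows). It was found in 4 of 21 windows of the increased genes (19%; Fgl2, Plscr1, Ptpn22 and Sspn) and in 5 of 23 windows of the decreased genes (21.7%; Bcl6, Ccr6, Irf8 and Mef2c), against 8.3% of 32851 windows of all genes. These are letter matches only.

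Immunoglobulin genes differed by segment and class. Ighv14-2, a heavy chain variable segment, read 508 and 672 in B2 and 53.0 and 73.9 in B1 (-3.22 ± 0.18, adjusted p = 5e-07), and its 3 probe sets were all lower in B1. Variable segments share sequence, so the probe sets may read several of them. Ighg3, the IgG3 constant gene, read 210 and 195 in B1 against 75.9 and 79.1 in B2 (1.39 ± 0.24, adjusted p = 0.0085), and its call was lost without any 1 of the 4 arrays (0.07 to 0.09). Of 7 measured chain genes, Ighg3 was the 1 called higher and Ighd the 1 lower. Jchain, the chain that joins IgM pentamers, read 87.4 and 117 against 67.8 and 67.1 (0.59 ± 0.16, adjusted p = 0.17). Of 20 antibody secretion and endoplasmic reticulum genes, 0 were called and the median was 0.06. Prdm1, which encodes Blimp-1, differed by 0.51 ± 0.26 on a dim probe set and Xbp1 by -0.35 ± 0.46.

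Genes of antigen presentation to T cells lay below 0 on 11 of 12 members and above on 1, where 3153 of 8251 genes lay above 0. The list median was -0.54, and on 7 of the 12 both B1 arrays were below both B2 arrays, beside 20.7% of all genes. The test called 2 of them lower, beside 0.376% of all genes, and 0 in the other direction. H2-DMb1, a chain of the peptide editor H2-DM, read 660 and 693 in B1 against 1437 and 1288 in B2 (-1.01 ± 0.16, adjusted p = 0.0044, and 0.079 without B2 replicate 1). Ciita, the master coactivator of MHC class II genes, read 119 and 107 against 181 and 190 (-0.71 ± 0.14, adjusted p = 0.022), and its call was lost without any 1 of the 4 arrays (0.065 to 0.31). The class II chain H2-Aa was bright in both, at 5775 and 4815 against 8417 and 7717 (-0.61 ± 0.35, adjusted p = 1). H2-Oa, a chain of the DM inhibitor, had the largest difference of the list without a call (-1.27 ± 0.35, adjusted p = 0.17).

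Of 17 costimulation and TNF-family genes, 2 were called lower and 0 higher, beside 0.376% and 0.982% of all genes. Cd40, the receptor for T cell help, read 292 and 227 in B1 against 595 and 442 in B2 (-0.99 ± 0.21, adjusted p = 0.032, and 0.5, 0.5 and 0.058 without B1 replicate 2, B2 replicate 1 and B2 replicate 2). Traf5, a signal adaptor of the TNF receptor family, read 326 and 349 against 565 and 578 (-0.76 ± 0.16, adjusted p = 0.027, from 0.14 to 0.24 with 1 array left out). Ltb, a lymphotoxin chain that shapes follicles, read 1488 and 615 against 2790 and 2562 (-1.48 ± 0.38, adjusted p = 0.11).

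The interferon-induced genes split. Of 20 measured members 16 lay below 0 and 4 above, where 3153 of 8251 genes lay above 0. The median was -0.23, and 0 were called lower. On 13 of the 20 both B1 arrays were below both B2 arrays and on 3 above, beside 20.7% and 13% of all genes. The 2 called higher were Plscr1, a phospholipid scramblase induced by interferon, at 461 and 987 in B1 against 70.8 and 69.4 in B2 (3.27 ± 0.31, adjusted p = 3.2e-05), and Gbp2. Gbp2, an interferon-induced guanylate-binding GTPase, read 389 and 405 against 72.4 and 63.8 (2.55 ± 0.30, adjusted p = 0.00033). Gbp3, of the same family, read 1033 and 1036 against 277 and 361 (1.71 ± 0.42, adjusted p = 0.089). Classical type I interferon targets lay below 0: Isg15 differed by -0.51, Mx1 by -0.44, Irf7 by -0.47 and Usp18 by -1.23 ± 0.59, none of them called.

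Other named increases were Saa3, an acute-phase serum amyloid, at 657 and 332 in B1 against 48.2 and 36.3 in B2 (3.48 ± 0.68, adjusted p = 0.019), whose call was lost without any 1 of the 4 arrays (0.058 to 0.22). Nacc2, a BTB-domain repressor, read 134 and 296 against 18.8 and 21.0 (3.32 ± 0.44) on 1 probe set, while a brighter one differed by 0.74 and was not called. Fgl2, a fibrinogen-like protein, read 125 and 205 against 23.3 and 24.4 (2.74 ± 0.25). Akap17b, an anchoring protein for protein kinase A, read 288 and 333 against 54.8 and 45.3 (2.64 ± 0.18). The groups did not overlap on any of these genes, which was a condition for naming them. A second, dim Fgl2 probe set differed by -0.07 and was not called.

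Other named decreases included Rflnb, a filamin-binding protein, at 896 and 713 in B2 and 100.3 and 61.4 in B1 (-3.35 ± 0.25, adjusted p = 3.1e-06). Laptm5, a lysosomal protein that promotes antigen receptor turnover, read 3741 and 3980 against 1613 and 1141 (-1.51 ± 0.18), and its other probe set was called too (-2.21). Dusp2, a nuclear phosphatase of MAP kinases, read 512 and 490 against 151 and 155 (-1.71 ± 0.33, adjusted p = 0.016, from 0.11 to 0.15 with 1 array left out). Ms4a4c, of the CD20-like family, fell by 2.19 (SE 0.35, adjusted p = 0.0042, and 0.089 and 0.081 without B1 replicate 2 and B2 replicate 1). Car2, a carbonic anhydrase, fell by 1.54 (SE 0.24, adjusted p = 0.0032, and 0.067 without B2 replicate 2).

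Immediate-early genes of receptor activation gave 1 call in each direction among 17, Myc and Dusp2. The summed intensity of the list was 5064 and 10958.5 in B1 and 5234 and 8507 in B2. It was thus higher on both replicate 2 arrays than on both replicate 1 arrays. Myc, the growth regulator, read 95.0 and 137 in B1 against 40.5 and 30.4 in B2 (1.70 ± 0.27, adjusted p = 0.0044), and 0.094 and 0.093 without B1 replicate 2 and B2 replicate 2. Fos was high on 1 array only, at 45.7 and 368 in B1 against 34.9 and 43.4 in B2 (1.74 ± 0.73, adjusted p = 0.85). Of 27 cell cycle genes, 0 were called, 20 lay below 0 and 7 above (median -0.15), where 3153 of 8251 genes lay above 0. Ccnd2, the D-type cyclin of activated B cells, read 1059 and 506 against 368 and 308 (1.12 ± 0.35, adjusted p = 0.31). Survival genes (15), Toll-like receptor pathway genes (10), lipid genes (21), glycolysis genes (13) and heat shock genes (11) had 0 calls in either direction. The heat shock sum also followed the replicate number, at 6831 and 11033 in B1 and 6335 and 9620 in B2.

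**Figure D3:**
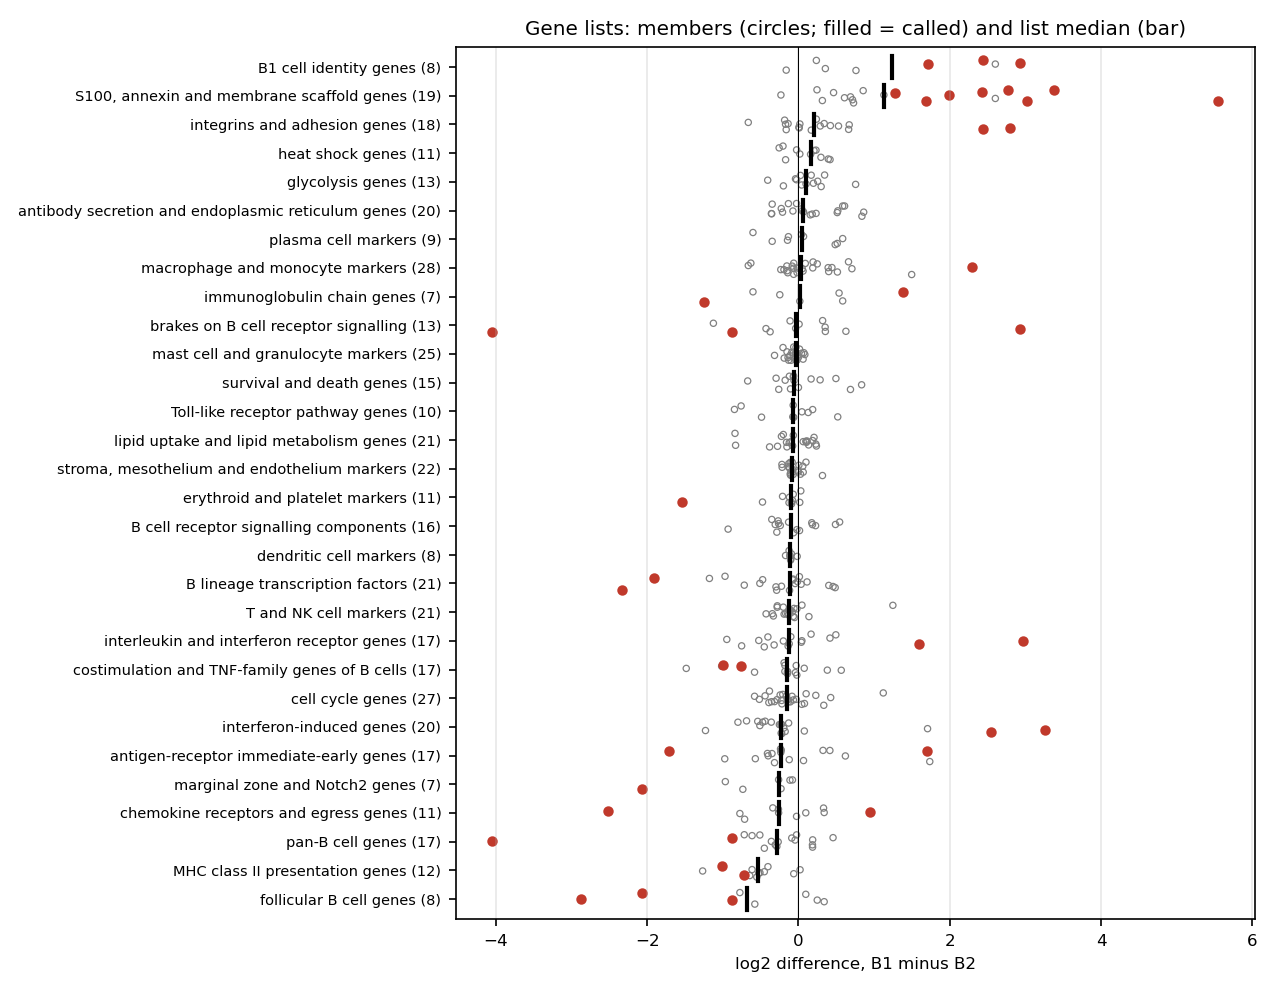
Log2 difference B1 minus B2 of each measured member (circle, filled where called) of the 30 gene lists, with the list median as a bar and the number of measured members in brackets. B1 identity genes (1.24) and S100, annexin and scaffold genes (1.13) have the highest medians, follicular genes (-0.67) and MHC class II genes (-0.54) the lowest.

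Markers of other cells that a peritoneal or splenic sort could hold were read beside these results. Of 28 macrophage and monocyte markers 1 was called higher in B1, Lyz2, the lysozyme of myeloid cells, at 233 and 89.5 against 39.1 and 22.2 (2.29 ± 0.43, adjusted p = 0.013). Its adjusted p was 0.16 without B1 replicate 1 and 0.24 without B2 replicate 2. On 10 of the 28 both B1 arrays were above both B2 arrays and on 3 below, beside 13% and 20.7% of all genes. Adgre1, which encodes F4/80, was 1 of the 10, at 83.1 and 82.6 against 57.4 and 68.6 (0.40 ± 0.18, not called). Csf1r differed by -0.02, Cd68 by 0.44 and C1qa by -0.06, none called. Tyrobp, an adaptor of myeloid and NK receptors, read 354 and 290 against 151 and 85.3 (1.498 ± 0.45, adjusted p = 0.24). The summed intensity of the list was 3831 and 2930 in B1 and 3634 and 3102 in B2, so the groups overlapped, and no marker is at 0 on this scale. Saa3, Fgl2 and Lyz2 are also made by macrophages, and a part of such cells in their values was not tested.

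Of 25 mast cell and granulocyte markers, 21 T and NK cell markers, 8 dendritic cell markers, 22 stroma, mesothelium and endothelium markers and 9 plasma cell markers, 0 were called. Cd2, a T and NK cell adhesion molecule that mouse B cells also carry, read 2340 and 1962 in B1 against 1178 and 690 in B2 (1.25 ± 0.29, adjusted p = 0.064), while Cd3e differed by -0.05. The 1 call among 11 erythroid and platelet markers was Car2, lower in B1. Of genes shared by all B cells, Ms4a1, which encodes CD20, read 5446 and 4021 in B1 and 5417 and 4565 in B2 (-0.09 ± 0.44). Of 17 such genes 2 were called lower, Cd72 and Cd22, beside 0.376% of all genes, with a median of -0.28. Of 7 marginal zone and Notch2 genes, Cr2 was the 1 called lower, and Cd1d1 differed by -0.73 ± 0.23 and Dtx1 by -0.97 ± 0.36 without a call.

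The B cell difference was set against the differences between the T cell groups of the series, NKT minus CD4T and CD8aaT minus CD8abT, which share no array with it but share its estimate of the spread. The difference between B1 minus B2 and the mean of the other two was called on 143 probe sets (1.15%), 94 of them among the 142. It was called for 26 of the 30 named genes, 12 increases and 14 decreases. The exceptions were Ahnak, Ptpn22, Fgl2 and Satb1. The tested value contains the B1 minus B2 difference by which the 142 and the 30 were picked. These counts are therefore not independent of that choice. Ahnak differed by 0.87 in NKT minus CD4T (not called) and 2.24 in CD8aaT minus CD8abT beside 3.02 in B1 minus B2. Fgl2 differed by 3.25 and 1.06 (the latter not called) beside 2.74. Cd72 went the other way in NKT minus CD4T (1.90, called) and was near 0 in CD8aaT minus CD8abT (-0.16). Il6st and Nacc2 were of opposite sign in NKT minus CD4T, at -1.37 and -1.04, but neither of these differences was called. Of the 142 calls, 17 were also called in NKT minus CD4T (12% of the B cell calls, 8.42% of its 202 calls, which are 1.63% of probe sets), 11 in the same direction and 6 opposite, and 5 in CD8aaT minus CD8abT (3.52%, and 21.7% of its 23 calls, 0.185% of probe sets), 4 in the same direction and 1 opposite.

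**Figure D4:**
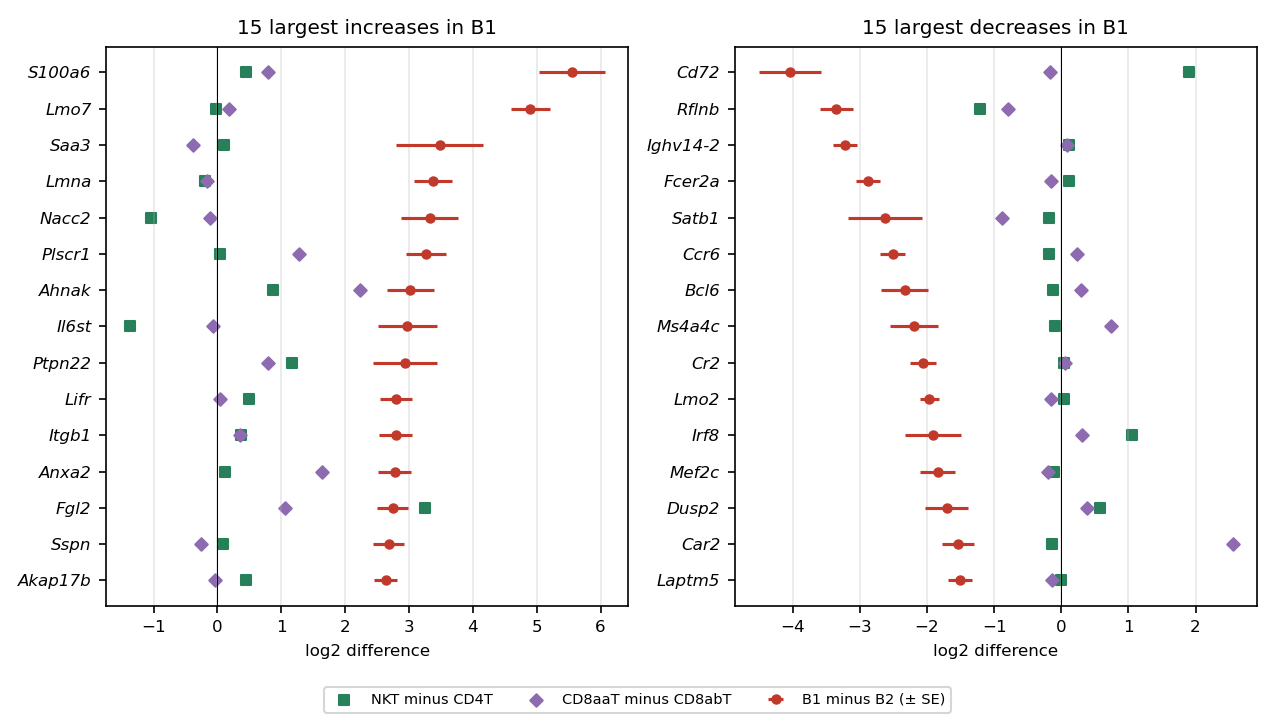
Log2 differences of the 30 named genes in B1 minus B2 (red circles, bars are ± SE), NKT minus CD4T (green squares) and CD8aaT minus CD8abT (purple diamonds). Fgl2 differs by 3.25 in NKT minus CD4T and by 2.74 in B1 minus B2. Car2 differs by 2.56 in CD8aaT minus CD8abT and by -1.54 in B1 minus B2.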

How the data were processed

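Per the labels, RNA of sorted cells was extracted with TRIZOL, amplified and labelled as biotinylated cRNA, with 1 array per sample. The intensities deposited by the authors are on a linear scale and were made with RMA, per the submitters' processing notes. The version and settings of RMA, and the set of arrays it was run on, were not stated in the labels. Of 12488 probe sets, 66 controls were left out, leaving 12422. The platform annotation paired 10833 of them with 1 symbol, 396 with several and left 1193 unlisted, and 10817 matched the RefSeq table (GRCm38.p6) by Entrez number.

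Groups and replicate numbers came from the titles. Log2 of the deposited intensities was fitted in R 4.3.3 by limma 3.58.1, using lmFit and eBayes with two-sided tests, 6 group means, all 16 arrays and no filter on dim probe sets. Benjamini-Hochberg adjustment ran over 12422 probe sets and calls were made under 0.05. The fitting code was tested on simulated data. The named genes are the 15 largest increases and 15 largest decreases among called probe sets with 1 gene symbol and no overlap, without Ighm, Ighd, Itgam and clone names, each gene by its brightest called probe set. In the 30 gene lists each gene is its brightest probe set over the 4 B cell arrays. The members and lists were chosen with earlier results of these data known. Same-numbered B1 and B2 arrays deviated together (correlation 0.69), but 2 pairs are too few to take the numbers as a pairing. No read depth exists for arrays.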

Additional observations from a re-analysis of the deposited data

Results flagged for a closer look

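For the 81 probe sets reported by name, the difference B1 minus B2 was tested against the mean of NKT minus CD4T and CD8aaT minus CD8abT, and 48 of them passed this test of the difference between the contrasts (limma, adjusted over 12422 probe sets). The values here are on the log2 scale, B1 minus B2 less the mean of the T cell differences. They contain the report's B1 minus B2 differences, by which many of these genes were picked, and share their estimate of the spread. The count of 48 is therefore not independent of that choice.

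Among genes of the nucleus, membrane scaffold and cytoskeleton the value was 4.93 for S100a6, 4.82 for Lmo7, 3.56 for Lmna, 3.06 for Crip1, 2.77 for Sspn, 2.44 for Akap17b, 2.44 for Itgb1 and 1.90 for Anxa2. It was 3.68 for Actn1, 2.96 for Pdlim1, 2.11 for Tubb6, 1.79 for Myadm and 1.45 for Tuba1a. Actn1 and Pdlim1 had fallen in NKT minus CD4T (-3.35 and -1.40).

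For receptors and signalling genes the value was 3.70 for Il6st, 2.53 for Lifr, 2.19 for Cd9, 2.15 for Ctla4, 1.47 for Csf2rb2, 1.20 for Sirpa and 1.12 for Ccr1. For regulators and transporters it was 3.90 for Nacc2, 1.78 for Myc, 1.74 for Zbtb20 and 2.24 for Slc7a7. Saa3 stood at 3.62 (adjusted p = 0.039), the interferon-induced Plscr1 at 2.61, Gbp2b at 2.42 and Gbp2 at 2.19, and Ighg3 at 1.44.

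On the side of B2, the surface genes gave -4.91 for Cd72, -2.85 for Fcer2a, -2.54 for Ccr6, -2.52 for Ms4a4c, -2.11 for Cr2, -1.17 for Cd40 and -0.997 for Cd22. The immunoglobulin genes gave -3.33 for Ighv14-2 and -1.30 for Ighd. Regulators gave -2.60 for Irf8, -2.42 for Bcl6, -2.19 for Dusp2, -1.91 for Lmo2 and -1.69 for Mef2c. The presentation genes gave -1.07 for H2-DMb1 and -0.81 for Ciita. Rflnb gave -2.34, Laptm5 -1.44 and Car2 -2.76, and Car2 was itself higher in CD8aaT than in CD8abT cells by 2.56.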

How the results depend on the processing

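All 30 named genes kept their direction in each of the 14 alternatives that tested them, but no overlap was a condition for naming them. Leaving out arrays therefore could not turn their sign. Of the 64 called probe sets reported by name, 32 kept their call whichever B cell array was left out, and 10 lost it with any of them. The 142 calls (98 higher, 44 lower in B1) became 50 (32 and 18) with the 4 B cell arrays alone, 214 (149 and 65) with 32 added before the log, and 227 (145 and 82) without replicate 1 of every group, a setting chosen after seeing the data. With 1 B cell array left out they ranged from 64 to 131, with 45 to 93 higher and 19 to 38 lower. Quantile normalization, median centring, leaving out dim probe sets, 1 probe set per gene, a trended robust prior and a minimum difference of 1 gave 114 to 157. The 143 calls against the T cell differences became 236 without replicate 1 of every group and 70 to 130 with 1 B cell array left out. Whether the same-numbered arrays share a batch is not stated. With the replicate number as a block the calls were 353 (211 and 142), including all 142, and 435 against the T cell differences.

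Among the lists, the 4 B cell arrays alone left 0 lower calls for immunoglobulin chains, transcription factors, MHC class II and costimulation, 1 each for the brakes and pan-B genes, 0 higher calls for chemokine receptors, immediate-early genes and macrophage markers, and 1 for interleukin receptors. They gave Ighd the same difference (-1.25) with an adjusted p of 0.11. The block gave 5 lower calls for transcription factors, 4 each for MHC class II and costimulation, and 1 each for receptor signalling, interleukin receptors and interferon-induced genes, with 3 higher macrophage markers, 2 brakes and 1 each for secretion, cell cycle, T and NK and glycolysis genes. Adding 32 gave 4 lower transcription factors, 2 higher chain, secretion and macrophage genes each, and 1 plasma cell gene. The B1 identity median was 0.83 with 32 added, 2.52 without dim probe sets (where the chain median was 0.56) and 1.61 without replicate 1 of every group. Without dim probe sets the lower calls of the marginal zone and erythroid lists and the higher calls of the chemokine receptor and immediate-early lists fell to 0. Without replicate 1 of every group, higher calls were 2 each for brakes, immediate-early genes and macrophage markers and 1 for T and NK markers, and lower calls 1 each for interleukin receptors and the Toll-like pathway. A minimum difference of 1 left 1 lower call each for brakes, MHC class II and pan-B genes and 0 for costimulation and, higher, chemokine receptors. Median centring gave 1 lower costimulation call and 1 higher T and NK call, and the trended prior 1 lower costimulation call. With 1 array left out, higher calls ranged from 1 to 3 for B1 identity genes and from 0 to 2 in the other lists whose count changed by over 1.5 times, lower calls from 0 to 2 in such lists, and medians from 0.88 to 1.48 for B1 identity, from -0.85 to -0.34 for follicular and from -0.22 to 0.30 for receptor signalling genes.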

Other observations

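The genes in this paragraph and the next were picked after their values were seen, so their calls describe these arrays and are not a test. Guanylate-binding proteins beyond the interferon list were higher in B1. Gbp7 read 828 and 889 in B1 against 159 and 169 in B2 (2.39 ± 0.45, SE, adjusted p = 0.014, from 0.078 to 0.14 with 1 array left out). Gbp2b read 86.8 and 285 against 36.1 and 34.3 (2.16 ± 0.36), with B1 replicate 2 far above B1 replicate 1 and an adjusted p of 0.05 and 0.07 without B2 replicate 1 and B2 replicate 2. Genes also known from myeloid cells were higher as well. Mpeg1, a pore-forming protein of phagocytes, read 652 and 612 against 253 and 235 (1.37 ± 0.22, adjusted p = 0.0049, and 0.078 without B2 replicate 2). Sirpa, the CD47 receptor, read 109.6 and 98.9 against 38.2 and 43.7 (1.35 ± 0.21, adjusted p = 0.0035, and 0.061 without B2 replicate 1), while its brightest probe set differed by -0.16 and was not called. Cxcl13, the chemokine that attracts CXCR5-bearing cells, differed by 1.18 ± 0.24, Cfp, which encodes properdin, by 1.08 ± 0.23 and Grn, which encodes progranulin, by 1.03 ± 0.23, while the brightest Grn probe set differed by -0.01. Without B1 replicate 2 and B2 replicate 1 their adjusted p was 0.53 and 0.11 for Cxcl13, 0.54 and 0.5 for Cfp and 0.63 and 0.34 for Grn, and without B2 replicate 2 it was 0.35 for Cxcl13 and 0.23 for Grn. The part of other cells in these values was not tested.

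Cytoskeletal genes were called higher too. Actn1, which encodes α-actinin, read 506 and 473 in B1 against 162 and 115 in B2 (1.84 ± 0.36), and Pdlim1, which binds it, 433 and 777 against 102 and 129 (2.34 ± 0.31). The tubulins Tubb6 and Tuba1a differed by 1.96 ± 0.20 and 0.78 ± 0.16, the calpain Capn2 by 2.05 ± 0.37 and Myadm, a membrane raft protein, by 1.86 ± 0.23. Slc7a7, an amino acid transporter, differed by 2.33 ± 0.31, Zbtb20, a transcription repressor, by 1.49 ± 0.23 and Evi2a by 1.57 ± 0.22. The calls of Actn1 (adjusted p of 0.057 to 0.26) and Tuba1a (0.081 to 0.45) were lost whichever of the 4 arrays was left out, and that of Capn2 without B1 replicate 2, B2 replicate 1 and B2 replicate 2 (0.2, 0.09 and 0.098). The groups did not overlap on any of these genes, which held for all 142 called probe sets and for 32.3% of all probe sets.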
